A study of Mus musculus with 89 samples.

Results

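Exon skipping was described for 9 mouse genes that build, branch, move or anchor actin filaments, namely Inf2, Enah, Cttn, Cyfip2, Cdc42bpa, Ablim1, Sorbs2, Myo18a and Myo5a. The genes were taken by name, with every event listed for them in either of 2 tables of exon skipping from mouse nucleus accumbens, a ventral part of the striatum. For each event, that is 1 exon between a given pair of neighbours, the tables count the reads that include the exon and those that skip it. The HSV table lists 66 events of these genes among 27900, in 9542 genes. The dCas9-SET2 table lists 34 among 5608, in 3434 genes.

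The series examined histone H3 lysine 36 trimethylation (H3K36me3) and alternative splicing and holds 89 samples. Its RNA samples came from wild type C57BL/6 mice aged 8 weeks. One experiment delivered HSV-Set2, HSV-R195G or HSV-GFP, that is the methyltransferase Set2, a Set2 carrying the substitution R195G, or GFP, in a herpes simplex virus vector, with 3 libraries each. The other used dCas9-SET2, an inactive Cas9 fused to SET2, with sgRNA-SRSF11 or the non-targeting sgRNA-NT, with 16 runs each under sample names of 4 runs.

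Each table joins its libraries in 2 unnamed sets. In the HSV table one set has 3 libraries and the other has 2, and in the dCas9-SET2 table a second and a first set list 16 runs each. In each of these, 1 listed run repeats another of its set in every event, and it was counted once, which leaves 15 distinct runs per set. No virus and no guide was therefore assigned to a set, and a difference between sets is given as that only. The labels do not say which libraries came from separate animals, so the spread between libraries may be technical. For inclusion, p-values rest on a spread pooled over events of like read depth, and not on that of the event's own libraries. They can thus be very small for 3 libraries against 2. The promoter and the cells that carried a vector are not given in the sources used here.

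Actin filaments give dendritic spines their shape, and their assembly and branching accompany changes of synaptic strength. The Arp2/3 complex starts branches and is switched on by the WAVE complex, formins and Ena/VASP proteins lengthen filaments, and myosins pull on them or carry cargo along them. Many of these proteins exist in forms that differ by a small exon.

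In the HSV table, reads over all listed events numbered 7428974 to 8341849 per library in the 3-library set and 8366275 to 8638249 in the 2-library set. The libraries differed in cell type markers and in interferon genes. Over all 8201 genes tested for coverage, 13.2% were higher and 9.47% lower in the 3-library set (limma with a Benjamini-Hochberg adjusted p below 0.05). Coverage was lower in the 3-library set for 8 of 9 medium spiny neuron genes tested, with a summed coverage of 3228 to 3463 CPM (reads of each gene's deepest event, scaled to a library total of 1000000), against 7721 to 9612 in the 2-library set. It was higher in the 3-library set for 14 of 14 interferon response genes (3148 to 3562, against 88.9 to 203 CPM in the 2-library set) and for 6 of 10 microglia genes (3227 to 3290, against 1198 to 2582 CPM in the 2-library set). Neuron genes were higher in 4 of 6 and lower in 2 of 6, oligodendrocyte genes higher in 6 of 8, astrocyte genes higher in 3 of 7, and 1 vascular gene tested was not called. No marker of these lists was at 0. In bulk tissue, fewer cells of a type and less RNA per cell cannot be told apart. The part of these shifts in the results on the actin genes was not tested.

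The inclusion level is the share of transcripts that carry the exon, from 0 to 1, with each form's reads divided by its length. Of the 66 events, 38 had enough reads of both forms to be tested, with a mean of at least 20 reads in a library and at least 10 of the rarer form in all. Of the 28 not tested, 21 were included above 0.9 in every library. With limma on the logit of inclusion and a Benjamini-Hochberg adjusted p below 0.05 over all 7754 events tested, 7 member events in 5 genes were called. Inclusion was higher in the 3-library set in 6 of them and lower in 1. This is 18.4% of the member events tested, against 3.56% of all events (1.69% higher and 1.87% lower in the 3-library set), and the genes were chosen with earlier results of these data known. All libraries of 1 set lay above all of the other in 11 of the 38 events, close to the 27.8% of all events tested. Without precision weights no event of any gene was called in limma, and with a variance between libraries added to them, chosen after seeing the data, the 75-nt exon of Cyfip2 was the 1 member called. The members' median difference was -0.04 on the logit scale, against -0.05 over all events tested.

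**Figure D1:**
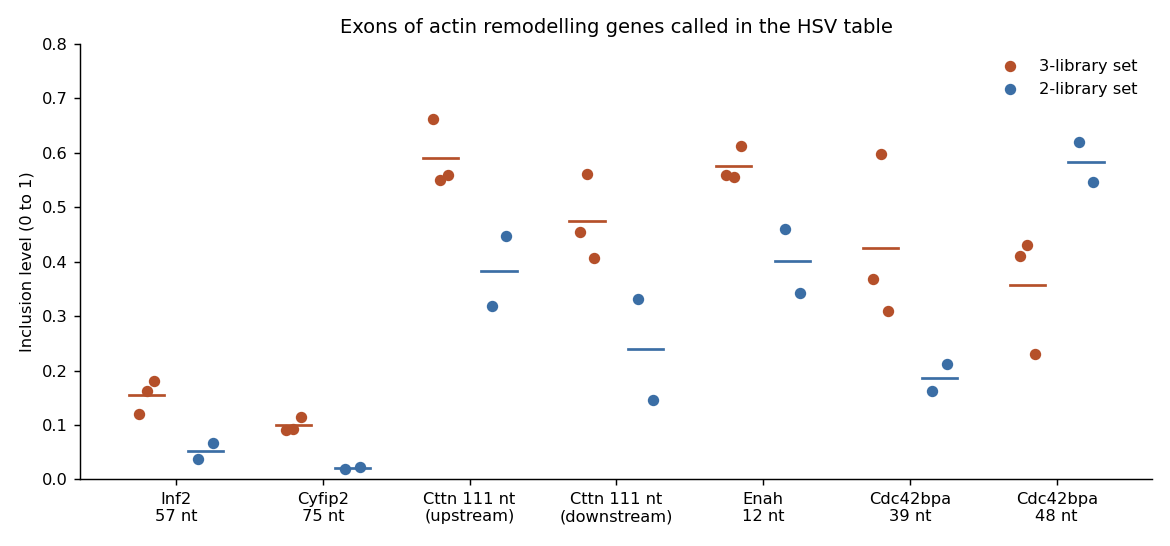
Inclusion level (vertical axis, 0 to 1) of the 7 called events of the HSV table, with 1 point per library and a line at the mean of each set. The sets do not overlap in any of the 7, and the 48-nt exon of Cdc42bpa is the one with lower inclusion in the 3-library set.

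Filament assembly is the work of Inf2, a formin that both lengthens and severs filaments, and of Enah (Mena), an Ena/VASP protein that keeps growing filament ends free of caps. Both carried a small exon that was included more in the 3-library set.

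The 57-nt exon of Inf2 (chr12:113850759-113850815, as the HSV table gives it) had inclusion levels of 0.121, 0.163 and 0.181 in the 3-library set, against 0.038 and 0.067 in the 2-library set. It was a minor form in all 5 libraries and higher in each library of the 3-library set. The difference was 1.19 on the logit scale (SE 0.15, limma adjusted p = 1.61e-12), and it stayed called without any 1 library. Reads that included the exon overlapped between the sets, at 22.5 ± 3.9 CPM in the 3-library set and 24.0 ± 5.4 in the 2-library set (SD, n = 3 and 2). Reads that skipped it were fewer in the 3-library set, at 88.9 ± 6.0, against 325 ± 63 CPM in the 2-library set. The higher inclusion level thus went with fewer skipping reads, without a matching fall of including reads. The other 3 listed exons of Inf2, of 142, 62 and 101 nt, were included at 0.973 or more in every library.

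Inf2 as a whole was covered less in the 3-library set. Coverage was taken as the reads of the deepest listed event of a gene, here 122, 141 and 110 CPM in the 3-library set, against 446 and 351 in the 2-library set. The sets did not overlap, and coverage was 3.20-fold lower in the 3-library set (log2 difference -1.68, SE 0.13, limma adjusted p = 1.65e-06 over 8201 genes). In the same fit 22.7% of all genes were called in either direction. The medium spiny neuron genes fell in the same direction, with a median log2 difference of -1.22. Their part in the Inf2 result was not tested. Skipping reads of the 57-nt exon, 3.65-fold lower in the 3-library set, ran with the coverage of Inf2. Including reads of that exon overlapped between the sets, so only the skipping form was lower in the 3-library set. Why the forms differed in this was not tested.

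The 12-nt exon of Enah (chr1:183861305-183861316, as the HSV table gives it) adds codons without shifting the reading frame, and it has the length of an exon known as the plus exon of Mena. Its inclusion levels were 0.559, 0.555 and 0.613 in the 3-library set, against 0.46 and 0.342 in the 2-library set. Both forms were thus common, and the sets did not overlap. The difference was 0.73 on the logit scale (SE 0.23, limma adjusted p = 0.0387). The call was lost without any 1 of the 5 libraries, where the adjusted p ran between 0.0614 and 0.703. It was also lost with a spread fitted on precision, chosen after seeing the data (0.160), under which 2.14% of all events were called. Including reads stood at 26.0 ± 5.5 CPM in the 3-library set and 13.7 ± 0.5 in the 2-library set (SD, n = 3 and 2), and skipping reads at 17.5 ± 1.3 CPM in the 3-library set, against 19.5 ± 5.9 in the 2-library set.

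A 57-nt exon of Enah has the length of the exon that marks the invasive form of Mena in tumours. It was included at 0.112 to 0.13 in the 3-library set and 0.064 to 0.123 in the 2-library set, and it was not called (limma adjusted p = 0.831). It shares its skipping reads with the 12-nt exon. The other 2 Enah exons listed, of 58 and 85 nt, were included at 0.991 or more in every library. Coverage of Enah was 82.8 to 86.4 CPM in the 3-library set, against 61.8 and 77.3 in the 2-library set, with a log2 difference of 0.28 (adjusted p = 0.172).

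Branching involves Cttn (cortactin), which binds the Arp2/3 complex and steadies branches, and Cyfip2, a subunit of the WAVE complex that holds it inactive until Rac1 binds. Called events of both genes had higher inclusion in the 3-library set.

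Cortactin binds filaments through a row of tandem repeats, and 4 of the 9 listed Cttn exons are 111 nt long. The 2 upstream ones (chr7:151640581-151640691 and chr7:151638453-151638563, minus strand, as the HSV table gives them) were included at 0.972 or more in every library. The 2 downstream ones were alternative and were both called. The exon at chr7:151637932-151638042 had inclusion levels of 0.663, 0.551 and 0.56 in the 3-library set, against 0.319 and 0.447 in the 2-library set. Its sets did not overlap, and the difference was 0.83 on the logit scale (SE 0.16, limma adjusted p = 4.9e-05).

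The last of the 4, at chr7:151636883-151636993, was measured between other neighbours, so its levels are not directly comparable with those above. Its inclusion levels were 0.455, 0.562 and 0.407 in the 3-library set, against 0.332 and 0.146 in the 2-library set. The sets again did not overlap (logit difference 1.16, SE 0.24, limma adjusted p = 0.000204). Each of these 2 calls rested on 1 library of the 2-library set: without the one listed first, the exon at 151637932 was not called (adjusted p = 0.178), and without the one listed second, that at 151636883 was not (0.669).

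The 2 events share reads and are not separate readouts. Reads that skip the exon at 151636883 start from the exon at 151637932 and count among the including reads of that exon. The 2 events differed in which form moved. For the exon at 151636883, including reads were at 34.8 ± 4.0 CPM in the 3-library set and 8.99 ± 0.87 in the 2-library set (SD, n = 3 and 2). Its skipping reads overlapped. For the exon at 151637932, skipping reads were at 20.5 ± 3.6 CPM in the 3-library set and 37.3 ± 3.6 in the 2-library set, and including reads overlapped. Coverage of Cttn was 85.0 to 103.9 CPM in the 3-library set, against 115.9 and 118.7 in the 2-library set, and was not called (log2 difference -0.29, adjusted p = 0.124).

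The 75-nt exon of Cyfip2 (chr11:46072178-46072252, as the HSV table gives it) was a rare form. Its inclusion levels were 0.091, 0.093 and 0.114 in the 3-library set, against 0.019 and 0.023 in the 2-library set. The sets did not overlap, and the call held without any 1 library. The logit difference was 1.63 (SE 0.24, limma adjusted p = 3.66e-09), tested on the spread pooled over events. Including reads were 3.70-fold higher in the 3-library set, at 21.4 ± 2.6 CPM, against 5.79 ± 0.18 in the 2-library set (SD, n = 3 and 2). Skipping reads were fewer, at 129.5 ± 10.3 in the 3-library set and 181.8 ± 22.7 in the 2-library set.

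The other 3 listed exons of Cyfip2 were included at 0.987 or more in every library. Coverage of Cyfip2 was 417, 368 and 385 CPM in the 3-library set, against 633 and 517 in the 2-library set. It was lower in each library of the 3-library set (log2 difference -0.55, SE 0.10, limma adjusted p = 0.00147). Including reads of the 75-nt exon thus ran against the coverage of the gene, while its skipping reads ran with it.

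**Figure D2:**
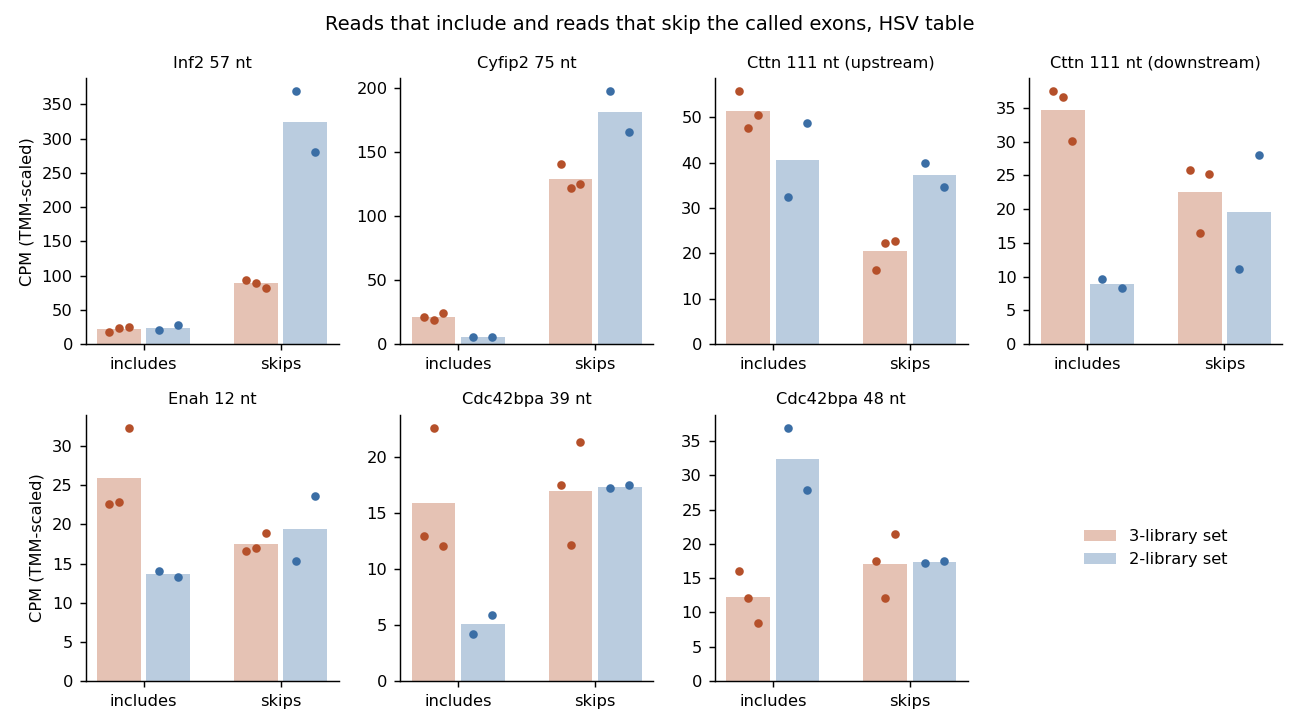
Reads in CPM (vertical axis) that include and that skip each called exon of the HSV table, scaled by TMM; bars are set means and points are libraries. In Inf2 the skipping form separates the sets (88.9 in the 3-library set against 325 in the 2-library set). In the downstream 111-nt exon of Cttn and both exons of Cdc42bpa the including form shows the wider gap. In Cyfip2 it does so only as a ratio (21.4 in the 3-library set against 5.79 in the 2-library set). The skipping form of Cyfip2 has the wider gap in CPM (129.5 in the 3-library set against 181.8 in the 2-library set).

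Cdc42bpa (MRCK alpha) is a kinase that the GTPase Cdc42 recruits to drive myosin contraction. It held 2 called events in opposite directions, on neighbouring exons that share their skipping reads. The 48-nt exon (chr1:182048867-182048914, as the HSV table gives it) had inclusion levels of 0.41, 0.431 and 0.231 in the 3-library set, against 0.619 and 0.547 in the 2-library set. The 39-nt exon that follows it (chr1:182054055-182054093) stood at 0.369, 0.597 and 0.309 in the 3-library set, against 0.162 and 0.212 in the 2-library set. The sets did not overlap for either exon. The differences were -0.91 (SE 0.23, limma adjusted p = 0.00329) for the 48-nt exon and 1.13 (SE 0.30, adjusted p = 0.00884) for the 39-nt exon on the logit scale.

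Reads that skip both exons did not separate the sets, at 17.01 ± 4.65 CPM in the 3-library set and 17.36 ± 0.18 in the 2-library set (SD, n = 3 and 2). Including reads of the 48-nt exon were at 12.2 ± 3.8 CPM in the 3-library set and 32.4 ± 6.4 in the 2-library set, and those of the 39-nt exon at 15.9 ± 5.9 in the 3-library set, against 5.05 ± 1.22 in the 2-library set. The share of the 39-nt exon among the including reads of both exons was taken with reads divided by form length. It was 45.7%, 66.2% and 59.8% in the 3-library set, against 10.6% and 18.2% in the 2-library set. This share was computed after the values were seen and is a description.

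Both calls were less firm than those of Inf2 and Cyfip2. The 48-nt exon was not called without the library listed last in the 3-library set (adjusted p = 0.190) or without the one listed first in the 2-library set (0.253). The 39-nt exon was not called without the library listed second in the 3-library set (0.269) or without either of the 2-library set (0.292 and 0.0976). Among the other 9 Cdc42bpa events, a 186-nt exon came closest, with inclusion of 0.222, 0.123 and 0.163 in the 3-library set, against 0.08 and 0.148 in the 2-library set (adjusted p = 0.329). The sets overlapped there. Coverage of Cdc42bpa was 140.3 to 148.0 CPM in the 3-library set, against 152.5 and 193.0 in the 2-library set (log2 difference -0.24, adjusted p = 0.170).

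No event was called in the remaining 4 genes, of which Ablim1 and Sorbs2 anchor filaments. Ablim1 is a LIM protein that binds filaments, and its deepest tested event was a 105-nt exon (event total 59 to 92 reads per library). Inclusion levels were 0.676, 0.828 and 0.913 in the 3-library set, against 0.947 and 0.766 in the 2-library set, so the sets overlapped (limma adjusted p = 0.859). Its overlapping 141-nt and 147-nt exons share a boundary and their skipping reads. The 141-nt exon was at 0.187 to 0.205 in the 3-library set but at 0.132 and 0.446 in the 2-library set, and the 147-nt exon at 0.101 to 0.166 in the 3-library set, against 0.094 and 0.321 in the 2-library set.

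Ablim1 was the least covered member. Its deepest event had 20.6 to 24.8 CPM in the 3-library set, against 14.5 and 15.5 in the 2-library set. The sets did not overlap, and the log2 difference of 0.58 was not called (limma adjusted p = 0.108). With reads summed over all events of the gene it was (0.68, adjusted p = 0.00745). In that fit 2165 of all genes were called in either direction, against 1858 with the deepest event.

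Sorbs2 is an adaptor with SH3 domains that links filaments to adhesions, and a neural form of it, nArgBP2, is known from synapses. It was listed with 16 events over 8 exons. Its 1581-nt exon, the deepest, was the main form, with inclusion of 0.842, 0.789 and 0.697 in the 3-library set, against 0.94 and 0.756 in the 2-library set (limma adjusted p = 0.740). Several smaller exons of Sorbs2 were intermediate in both sets. A 45-nt exon, for example, was at 0.413 to 0.488 in the 3-library set, against 0.361 and 0.534 in the 2-library set.

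The myosins are Myo18a, which binds filaments with little motor activity of its own, and Myo5a, a motor that walks along filaments with vesicles and endoplasmic reticulum as cargo. The authors' deposited table has an FDR below 0.05 for 8 of the 38 member events tested, the 7 called here and a 36-nt exon of Myo18a (FDR 0.0329), and for 12.6% of all 7754 events tested here. Its inclusion levels were 0.894, 1 and 0.518 in the 3-library set, against 1 and 0.954 in the 2-library set, at a mean of 21.2 reads per library. The difference rested on the library at 0.518, and the event was not called here (limma adjusted p = 0.410). A second event of the same exon, with other neighbours, was at 0.59 to 0.685 in the 3-library set, against 0.538 and 0.56 in the 2-library set (adjusted p = 0.673).

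All 3 listed exons of Myo5a have the lengths of exons that are known to differ between tissues. A 9-nt exon, as long as the brain exon B, was included at 0.884 to 0.967 in the 3-library set, against 0.921 and 0.941 in the 2-library set. The 81-nt and 75-nt exons, as long as exons D and F of melanocytes, were at 0.023 to 0.12 and 0.009 to 0.032 in the 3-library set, and at 0.018 and 0.095, and 0.031 and 0.013, in the 2-library set. The pattern of brain Myo5a, exon B in and exons D and F mostly out, was thus seen in all 5 libraries. The sets overlapped for all 3 exons, and none was called (limma adjusted p = 0.924, 0.994 and 0.954).

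What the 7 called exons shared was that their lengths, 12 to 111 nt, are multiples of 3, so that skipping keeps the reading frame. This was also true of 33 of the 38 member events tested, against 52.8% of all events tested. Of the 276 events called over all genes, 219 had such a length, so the trait was not particular to these 7.

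Scaled for length (CPM per kilobase of each form), Cyfip2 had the highest level, at 1236 to 1403 in the 3-library set, against 1736 and 2130 in the 2-library set. In the 3-library set, Inf2, Cdc42bpa, Cttn, Myo18a, Myo5a and Enah followed with means between 496 and 405, and each of these overlapped its neighbour in that order. Sorbs2, at 112.6 to 169.1, and Ablim1, at 83.6 to 104.5, were lowest and did not overlap. In the 2-library set Inf2 stood second, at 1398 and 1778, above the 563 ± 95 of Cdc42bpa and the 573 ± 9 of Cttn (SD, n = 2). Inf2 and Cyfip2 were the only members whose coverage was called, 2 of 9, which is near the 22.7% of all 8201 genes tested. Log2 differences of the other 7 lay between -0.31 (Myo18a, adjusted p = 0.0603) and 0.58 (Ablim1). Without the library listed second in the 2-library set, the log2 difference was -0.37 for Myo18a and -0.41 for Cdc42bpa.

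**Figure D3:**
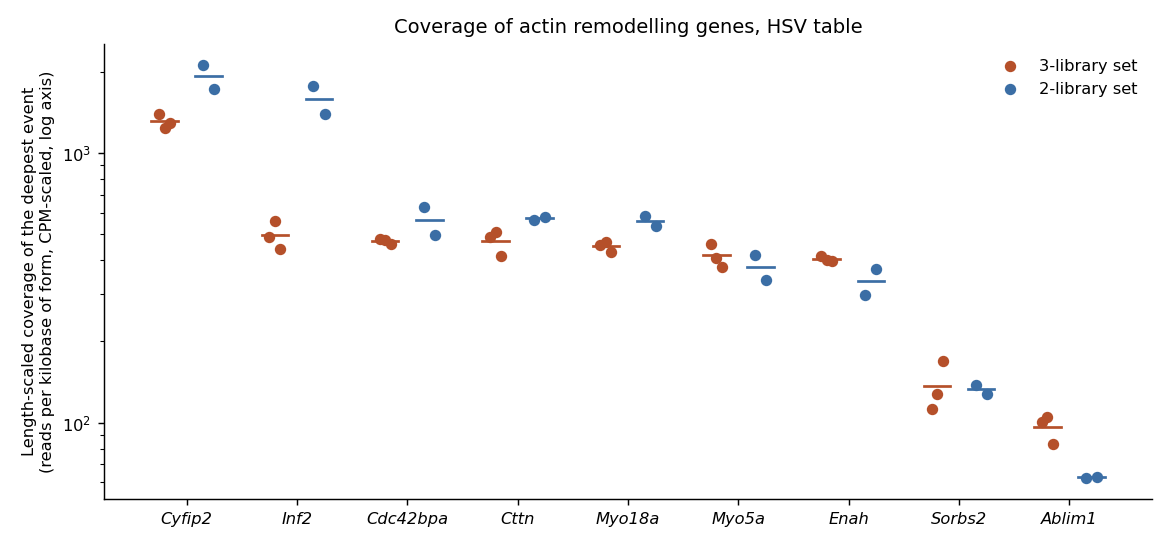
Length-scaled coverage of the deepest event of each gene in the HSV table (log axis), with 1 point per library and a line at the set mean. Inf2 shows the widest gap between sets, 496 in the 3-library set against 1588 in the 2-library set.

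Among other genes of actin biology, 175 events in 83 of 193 listed genes could be tested, and 7 events were called in 6 genes. This is 4.0% of their events, against 3.57% over all genes with a symbol. By gene it is 7.23%, against 5.68%, so the shares were near the background. Among cross-linkers and filament-binding proteins, 3 of 17 genes tested had a called event. The 207-nt exon of Phactr1, a striatal protein that binds actin monomers and protein phosphatase 1, was at 0.124, 0.115 and 0.169 in the 3-library set, against 0.027 and 0.035 in the 2-library set (limma adjusted p = 1.92e-36). The 79-nt exon of Tpm1, a tropomyosin, was at 0.232 to 0.333 in the 3-library set, against 0.137 and 0.198 in the 2-library set (adjusted p = 0.00126). The 138-nt exon of Dbn1 (drebrin), known for a form switch between embryonic and adult neurons, was lower, at 0.751 to 0.776 in the 3-library set, against 0.877 and 0.856 in the 2-library set (adjusted p = 0.00532).

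Of the WAVE and WASP group, 1 of 8 genes was called, the WAVE subunit Abi1, whose 174-nt exon was at 0.852 to 0.949 in the 3-library set, against 0.987 and 0.944 in the 2-library set, so the sets overlapped (adjusted p = 0.0478). No event of the Arp2/3 complex (5 genes tested), formins and Ena/VASP (13), capping and severing proteins (10), myosins (8) or actins (2) was called.

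Calls lost without 1 library were those of Abi1 (in every case but that of the library listed first in the 3-library set, with an adjusted p up to 0.531), Tpm1 (0.0515 without the library listed second in the 3-library set and 0.304 without the one listed first in the 2-library set) and Dbn1 (0.225 and 0.0582 without either of the 2-library set). In coverage, 10 of 135 other actin genes were higher and 40 lower in the 3-library set, beside 13.2% higher and 9.47% lower of all genes tested, with a median log2 difference of -0.11, against 0.00054 over all genes with a symbol. Lower genes included 6 of 10 of the Arp2/3 complex and 8 of 16 of the WAVE and WASP group.

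The dCas9-SET2 table is far shallower, with 56946 to 84870 reads per run over all listed events in the second set and 79799 to 106251 in the first set. Member events had a median of 9.62 reads per run, so inclusion is given from reads summed over the 15 distinct runs of a set, with exact (Clopper-Pearson) 95% binomial intervals. The intervals cover counting error only. The authors' deposited table has an adjusted p (padj) below 0.05 for 8 of the 34 member events, in 6 genes, and for 4.96% of the 5287 events that have one. Its dPSI is positive for 5 of the 8, in which summed reads were also higher in the second set. The size of dPSI differed from the difference of summed reads. It was 0.470 against 0.295 for the 144-nt exon of Myo18a, and 0.149 against 0.184 for the 12-nt exon of Enah. Summed reads differed in the direction of dPSI in all 8, against 87.4% of the 262 events called in all. Intervals of the 2 sets were apart in 3 of the 8, and in 4 of all 34 member events. The share over all listed events was not computed, so these counts are a description.

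**Figure D4:**
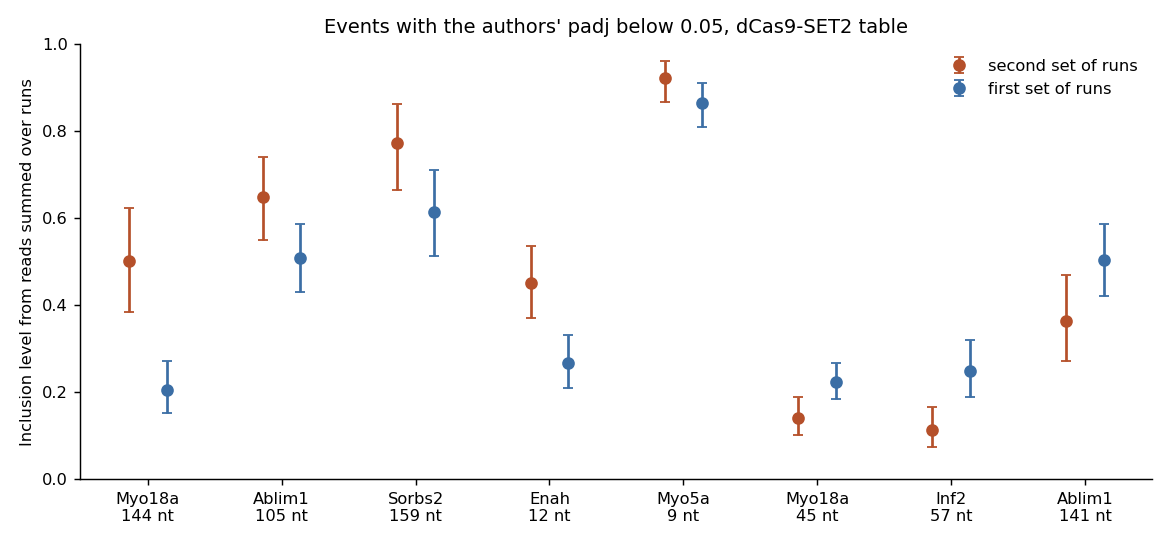
Inclusion level from summed reads (0 to 1) of the 8 events whose padj in the authors' deposited table is below 0.05, with exact 95% intervals for counting error. Intervals of the second and the first set are apart for the 144-nt exon of Myo18a, the 12-nt exon of Enah and the 57-nt exon of Inf2.

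The 12-nt exon of Enah (chr1:181931174-181931185 in GRCm38) had an inclusion level of 0.451 (95% interval 0.370 to 0.535) in the second set, against 0.268 (0.210 to 0.331) in the first set. Over runs it was lowest at 0.182, with a median of 0.471 and a highest value of 0.728, in the second set, against 0, 0.263 and 0.527 in the first set. Runs thus overlapped while the intervals of summed reads did not. The authors' deposited table gives a dPSI of 0.149 and a padj of 0.0309. The neighbouring 57-nt exon was at 0.0396 in the second set and 0.0448 in the first set. A 63-nt exon, as long as the epithelial exon of Mena, was at 0.175 (0.130 to 0.229) in the second set and 0.131 (0.0963 to 0.174) in the first set (padj 0.181 in the authors' deposited table).

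The 57-nt exon of Inf2 (chr12:112612548-112612604 in GRCm38) was lower in the second set, at 0.114 (0.0744 to 0.166), against 0.2498 (0.190 to 0.319) in the first set. Runs ranged from 0 to 0.559 in both sets, with a median of 0.083 in the second set and 0.241 in the first set. The authors' deposited table gives a dPSI of -0.21 and a padj of 0.0318.

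Myo18a had the largest dPSI of the 8 in the authors' deposited table, 0.47 (padj 0.0269), for its 144-nt exon. Inclusion was 0.501 (0.385 to 0.622) in the second set, from 90 reads in all, against 0.206 (0.152 to 0.272) in the first set, from 131 reads. A shorter 36-nt form of this exon, which starts at the same base and shares its skipping reads, was at 0.474 (0.343 to 0.612) in the second set, against 0.232 (0.163 to 0.315) in the first set. These intervals were apart as well, although the authors' deposited table gives a padj of 0.136. A second event of the 36-nt form, with another upstream neighbour, was lower in the second set, at 0.569 (0.284 to 0.834). In the first set it was at 0.6875 (0.432 to 0.886). It rested on 14 and 20 reads and its intervals overlapped (dPSI -0.5385 and padj 0.065 in the authors' deposited table). The 45-nt exon of Myo18a was also lower in the second set, at 0.142 (0.102 to 0.190), against 0.224 (0.185 to 0.268) in the first set. Its padj in the authors' deposited table is 0.0205, and its intervals overlapped slightly.

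In Ablim1, 2 events passed in opposite directions. The 141-nt exon was at 0.364 (0.271 to 0.470) in the second set, against 0.503 (0.422 to 0.587) in the first set (padj 0.0144 in the authors' deposited table). The 105-nt exon was at 0.648 (0.550 to 0.741) in the second set, against 0.508 (0.431 to 0.587) in the first set (padj 0.0335 in the authors' deposited table). Intervals overlapped for both exons.

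The 159-nt exon of Sorbs2 stood at 0.772 (0.664 to 0.861) in the second set, against 0.613 (0.514 to 0.710) in the first set, and the authors' deposited table gives a padj of 0.0374. The 9-nt exon of Myo5a was at 0.923 (0.866 to 0.961) in the second set and 0.864 (0.808 to 0.909) in the first set, with a padj of 0.0393 in the authors' deposited table. Both pairs of intervals overlapped.

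No event of Cttn, Cyfip2 or Cdc42bpa passed. The 111-nt exon of Cttn was at 0.383 (0.310 to 0.462) in the second set and 0.368 (0.311 to 0.430) in the first set. The 75-nt exon of Cyfip2 was again rare, at 0.0691 (0.0410 to 0.108) in the second set, against 0.0407 (0.0228 to 0.0669) in the first set. For the deepest event of Cdc42bpa, a 243-nt exon, inclusion was 0.832 (0.775 to 0.880) in the second set and 0.798 (0.753 to 0.838) in the first set.

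Marker lists could be followed in this table only through 2 to 6 listed genes each. The run median for 2 medium spiny neuron genes was 1450 CPM of all listed reads in the second set (runs 691 to 2478), against 790 (500 to 1084) in the first set. For 6 interferon genes it was 3677 in the second set (1688 to 5596), against 4020 (3337 to 6601) in the first set. Runs of the 2 sets overlapped for both lists. Other lists were at 1628 and 1592 (neurons), 7741 and 7142 (astrocytes), 8273 and 10927 (oligodendrocytes), 139 and 173 (microglia), and 44.1 and 42.8 (vascular cells) in the second and the first set. Their part in the differences of inclusion was not tested. The deepest event of Inf2 had 144 CPM in the second set and 111 in the first set, and that of Enah 181 in the second set and 163 in the first set.

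Coordinates of the 2 tables cannot be set side by side. Exons were therefore matched by gene, exon length and the lengths of both flanking introns, which paired 30 events from all 9 genes. Across the 4 sets, mean inclusion lay within 0.1 for 10 of them and spread over more than 0.25 for another 10. The narrowest was the 75-nt exon of Myo5a, at 0.0213 and 0.022 in the 3-library and 2-library sets, and at 0.0210 and 0.0325 in the second and first sets. The widest was the 159-nt exon of Sorbs2, at 0.333 and 0.2875 in the 3-library and 2-library sets, against 0.772 and 0.613 in the second and first sets.

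Of the 30, 6 were called in the HSV table. Only the exons of Inf2 and Enah also passed in the authors' deposited table of the dCas9-SET2 experiment. The 12-nt exon of Enah was higher in the 3-library set than in the 2-library set (0.576 and 0.401) and higher in the second set than in the first (0.451 and 0.268). The 57-nt exon of Inf2 was higher in the 3-library set than in the 2-library set (0.155 and 0.0525) but lower in the second set than in the first (0.114 and 0.2498). Because the sets have no names, whether these directions belong to like conditions was not tested.

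**Figure D5:**
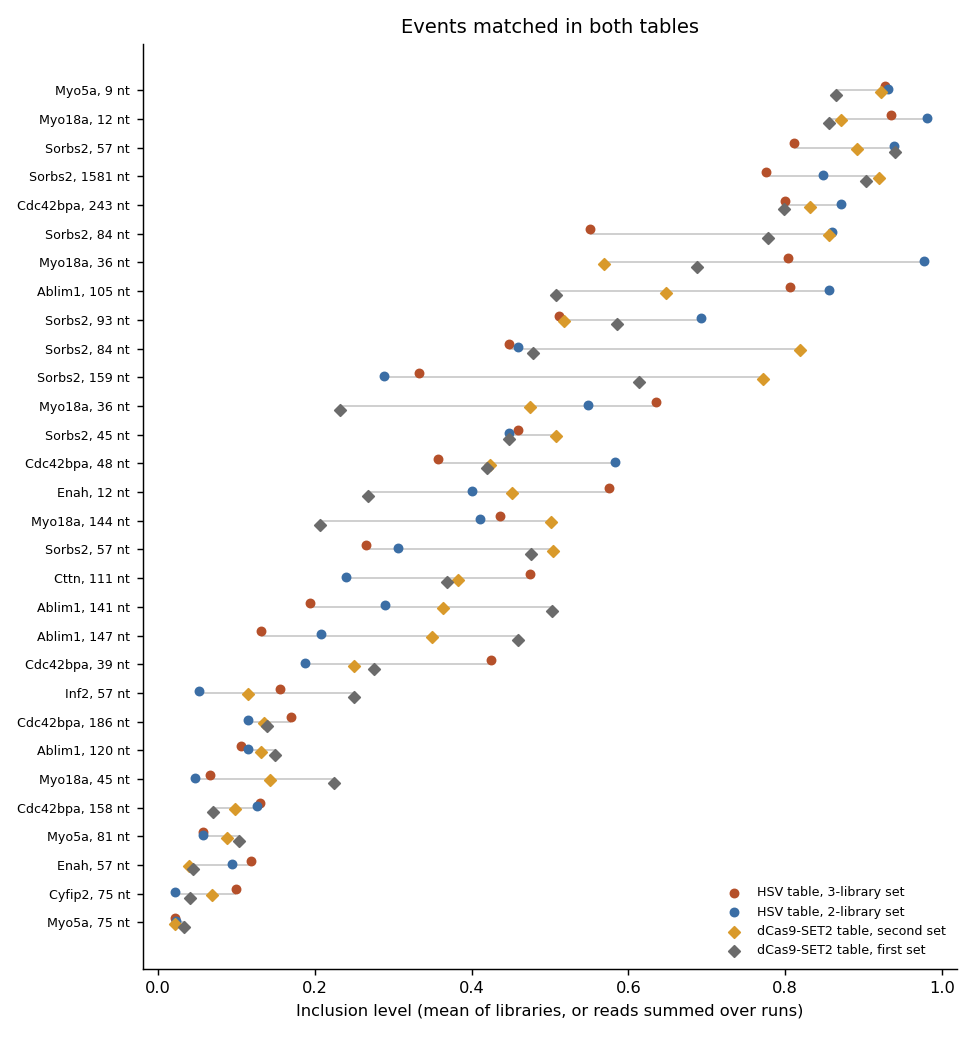
Inclusion level (0 to 1) of the 30 events matched in both tables, as the mean of libraries (HSV table, circles) or from summed reads (dCas9-SET2 table, diamonds), ordered by the mean of the 4 sets. Exons of Myo5a sit close together, while the 159-nt exon of Sorbs2 runs from 0.2875 to 0.772.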

How the data were processed

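The values came from 2 tables deposited by the authors. Both hold whole-number inclusion and skipping read counts per event, joined by commas in a cell, and inclusion levels that equal counts over form length within 0.001. The p-value and FDR of the HSV table and the padj of the dCas9-SET2 table come from the authors, by tests that the sources used here do not name. The difference score that the authors deposited in the HSV table is the 2-library mean minus the 3-library mean, the other way round from the differences printed here. The dPSI score that the authors deposited had the sign of the second set minus the first set, over runs, in 71.2% of events with a difference over 0.05. The event caller is not given in these sources. The submitters' processing notes name STAR 2.4.1d, Bowtie2, mm9 and mm10, with no role stated. The build of the HSV table is not stated: 13.1% of its events, against 99.8% of those of the dCas9-SET2 table, fell within the GRCm38 limits of their gene.

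Ensembl IDs of the HSV table were matched to symbols for 9430 of 9542 genes. The columns, 5 libraries and 32 runs, carry no sample names. In the dCas9-SET2 table the run listed at position 8 of each set equals the one at position 4 in every event and was counted once here. Whether the padj and dPSI that the authors deposited counted it once is not given. Counts joined in cells were not taken as columns of counts, so no count model was fitted. Logit inclusion (0.5 added to each count) was fitted in limma 3.58.1 (R 4.3.3) with precision weights from reads and a spread fitted on mean reads, 3-library minus 2-library set. In the main fit the prior degrees of freedom came out infinite, so an event's own residual spread carried no weight. Coverage was log2 CPM of each gene's deepest event (0.5 added, TMM trims 0.3 and 0.05, a mean of at least 20 reads), with a spread fitted on coverage. Calls used a Benjamini-Hochberg adjusted p below 0.05. The dCas9-SET2 runs, 4 per sample name, are not independent replicates and were not tested.

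Named events are those called here, up to 3 per gene with the authors' FDR below 0.05, otherwise the deepest tested event, and in the dCas9-SET2 table those with padj below 0.05, otherwise the deepest. Other member events and 1 share of reads were added after their values were seen. Of other actin genes, up to 3 called ones per group of lowest p are named, except for some that are not reported here. The members and lists were chosen with earlier results of these data known. Alternatives were other filters, weights, scalings, pseudocounts and leaving out each library. Exon sequences were not read, and the ChIP and CUT&RUN data were not used here.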

Additional observations from a re-analysis of the deposited data

How the results depend on the processing

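With no weights, 0 member events, 0 other actin genes and 0 of all events were called in limma (785 of all events had an unadjusted p below 0.05), and 7 member events, 6 other actin genes and 276 events were called with weights. A variance between libraries added to the weights, chosen after seeing the data, left 1 member event (the 75-nt exon of Cyfip2), 1 other actin gene and 19 events. A spread fitted on precision, also chosen after seeing the data, left 166 events in all and 6 of the members. The authors' deposited FDR was below 0.05 for 974 of the events tested and 22 of the other actin genes. Leaving out each library in turn gave 3 to 6 member events, 3 to 6 other actin genes and 104 to 197 events, the fewest without the library listed first in the 2-library set. For coverage it gave 2 to 4 member genes. No minimum for the rarer form left 5 member events, without both Cdc42bpa exons (adjusted p = 0.0510 and 0.168). The reversed values were all of results not called, each without 1 library or with coverage summed over events. Without 1 library, logit differences ran from -1.48 to 0.257 for the 105-nt exon of Ablim1 (reversed also at 0.053), from -0.37 to 0.511 for the 75-nt exon of Myo5a (also 0.112) and from -1.54 to 0.012 for the 1581-nt exon of Sorbs2. Log2 coverage differences ran from -0.017 to 0.303 for Myo5a and from -0.284 to 0.098 for Sorbs2 (0.037 summed over events). The cause was not tested. The 36-nt event of Myo18a gave no value without the library listed last in either set, where it had too few reads. With 1 library left in the 2-library set, that library is assumed to vary like the other set. No paired analysis was possible because the columns carry no replicate numbers. Counting the repeated run of each dCas9-SET2 set as a run of its own, chosen after seeing the data, kept the direction of the 8 events with padj below 0.05 in the authors' deposited table. Member events there had as few as 1.13 reads per run.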
